A study of Mus musculus with 12 samples.

Results

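In RNA of whole mouse hearts, 99 genes set the male floxed group apart from the other 3 groups of the study, 58 with the highest and 41 with the lowest level there. They were chosen from the measured values themselves, among 9636 genes with a mean of at least 8 over the 12 libraries, of 24918 rows in the deposited table. Of these 9636 genes, 1.03% were members, 0.602% on the higher and 0.425% on the lower side. A member had a male floxed mean at least 0.25 above, or at least 0.25 below, each of the other 3 group means on the log2 scale, and the groups labelled female floxed and female cardioGRKO differed by less than 0.12. Ogdhl, which met these conditions with a smallest difference of 2.04, was left out by the rule. Every difference of male floxed from another group, and every difference between the groups labelled female, is therefore a description of the choice and carries no test.

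The 12 libraries fall into 4 groups of 3, all from C57BL/6 hearts at 2 months of age without treatment. Male floxed and female floxed mice are homozygous for a glucocorticoid receptor gene flanked by loxP sites (GRloxP/loxP). Male and female cardioGRKO mice carry the same floxed alleles together with the transgene αMHC-Cre, in which the promoter of the cardiac myosin gene Myh6 drives Cre recombinase in cardiomyocytes. By the titles the floxed mice carry no Cre, so an effect of Cre and one of the deletion cannot be told apart. Titles alone give the groups, since the genotype entry of every sample says wild-type. The labels do not say that libraries of a group come from separate animals, and p-values measure only the spread between libraries, which may be technical. The design compares transcriptomes with and without the receptor in cardiomyocytes, and the title adds the question of sex.

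The glucocorticoid receptor, encoded by Nr3c1, is a nuclear receptor that binds corticosterone in mice, moves to the nucleus and turns genes on or off by binding DNA or other transcription factors. In the heart it is known for acting on calcium handling and energy metabolism in cardiomyocytes, and in many tissues for damping immune and interferon responses. Most of the adult heart's ATP comes from oxidation of fatty acids in mitochondria, and creatine kinases carry this energy to the myofibrils.

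Nr3c1 (Entrez 14815) read 11.40, 11.42 and 11.42 in the male floxed libraries and 10.83, 10.85 and 10.88 in male cardioGRKO on the deposited log2 scale. The libraries labelled female floxed read 10.74, 10.71 and 10.78, and those labelled female cardioGRKO 10.90, 10.90 and 10.85. Male floxed stood above the other 9 libraries, and the label female cardioGRKO went with the higher of the female levels, against what the label implies. The male change was -0.56 (SE 0.024, limma adjusted p = 2.45e-11) and the female change 0.14 (SE 0.024, adjusted p = 0.000384). An exact permutation test, two-sided, had p = 0.1 in each sex, the smallest that 3 against 3 libraries allow. The gene had a smallest difference of 0.53 between male floxed and the other groups, but its female groups differed by -0.138 (floxed minus cardioGRKO), so it is not a member. Because of this gene, groups are called by their labels wherever the female libraries are concerned.

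Cardiomyocyte markers were present in all libraries, with the summed linear level of 15 genes between 21.52 and 21.68 on the log2 scale. This sum was highest in male floxed, at 21.65 to 21.68, against 21.52 to 21.58 in the other groups. Summed levels of 12 fibroblast markers were lowest in male floxed, at 16.91 to 16.94 against 17.07 to 17.17, and those of 12 endothelial markers highest, at 16.47 to 16.48 against 16.28 to 16.40. The 9 atrial cardiomyocyte markers differed most, at 15.03 to 15.05 in male floxed, 17.13 to 17.14 in male cardioGRKO, 16.77 to 16.82 in libraries labelled female floxed and 15.75 to 15.78 in those labelled female cardioGRKO. Nppa, which encodes atrial natriuretic peptide, stood at 13.38 to 13.39 in male floxed and between 15.03 and 16.23 elsewhere. In bulk RNA, fewer cells of a type and less RNA per cell cannot be told apart. Male floxed was also highest for the adipocyte sum, at 14.65 to 14.70 against 14.32 to 14.57, and lowest for the skeletal muscle sum, at 13.37 to 13.41 against 13.61 to 14.10. Only 3 of 10 adipocyte and 2 of 10 skeletal muscle markers had a mean of at least 8, so these sums rest mostly on few genes. Fabp4 is in both the adipocyte and the endothelial list, and its part in either sum was not separated. The part of the marker differences in the members' values was not tested. Krt12, a keratin of the corneal epithelium, reached 13.13 in the library labelled female floxed 1 and 13.98 in female floxed 2, against 7.16 to 8.49 in the other 10. Without these 2 libraries the rule found 96 genes, of which 85 were among the 99.

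**Figure D1:**
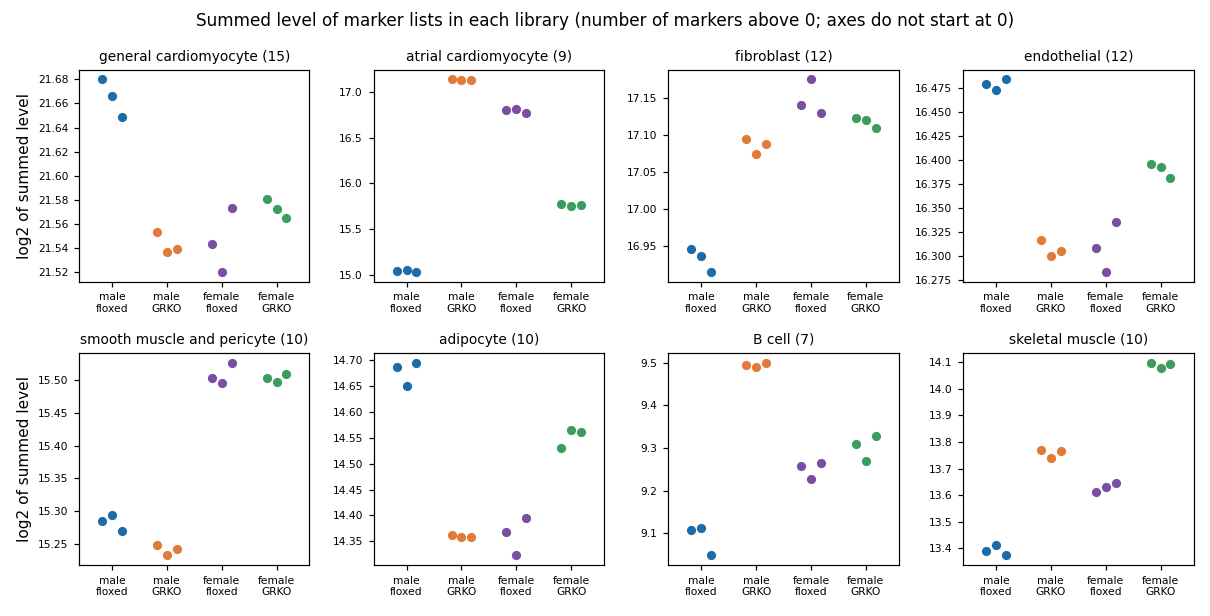
Summed levels of cell type marker lists in each of the 12 libraries (y axes: log2 of the summed linear values; x axes: the 4 groups, each point 1 library). The male floxed libraries are the lowest for the atrial and fibroblast lists and the highest for the cardiomyocyte and endothelial lists.

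The rule used group means only, and the single libraries show how far the groups lay apart. In all 99 members the 3 male floxed libraries lay on one side of the other 9. Among the 14721 genes tested, 10.1% had all 3 male floxed libraries above and 7.63% below the other 9. This background describes the table, and nothing is read from the members' count, because the rule fixed most of it. The distance between the nearest male floxed library and the nearest other library was 0.153 to 0.441 for the 58 higher members (median 0.259) and 0.119 to 0.546 for the 41 lower ones (median 0.23). Within groups the members varied little, with a median of 0.047 for the largest SD of a member and a highest value of 0.178, for Cpxm2 in the libraries labelled female floxed.

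The difference between male floxed and the nearest group mean, called the smallest difference from here on, ranged from 0.253 to 0.516 among higher members (median 0.309) and from 0.251 to 0.599 among lower ones (median 0.291). Just inside the limit of 0.25 were Tfdp2 (0.2535) and Oat (0.2546) among higher genes, and Mreg (-0.2505) and Plxdc2 (-0.2517) among lower ones. Just outside were Fam160a1 (0.2483) and Tmem38b (0.2495), and on the lower side P4htm (-0.2497) and Pcolce2 (-0.25 when rounded). The members thus form the upper end of a continuous range of differences.

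**Figure D2:**
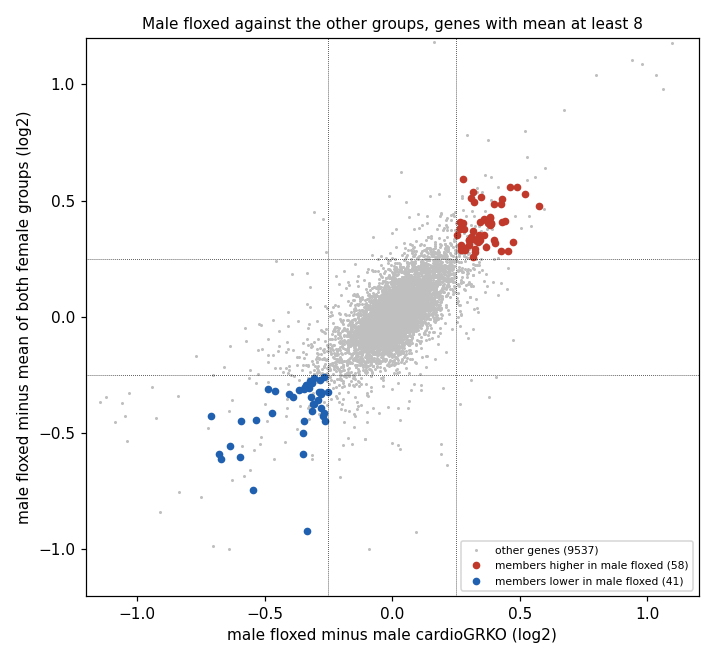
Difference of male floxed from the mean of both groups labelled female (y axis, log2) against its difference from male cardioGRKO (x axis, log2) for the 9636 genes with a mean of at least 8, with the 99 members in colour. Members lie beyond 0.25 on both axes by construction, and 19 genes outside the axis range of 1.2 are not shown.

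Applied in turn to each group, with the closeness limit set on the groups of the other sex and Ogdhl kept, the rule found 100 genes for male floxed, 14 for male cardioGRKO, 48 for the group labelled female floxed and 17 for that labelled female cardioGRKO. Without the 2 libraries rich in Krt12 the count for female floxed was 54. These counts have no test, since each is 1 count per group.

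**Figure D3:**
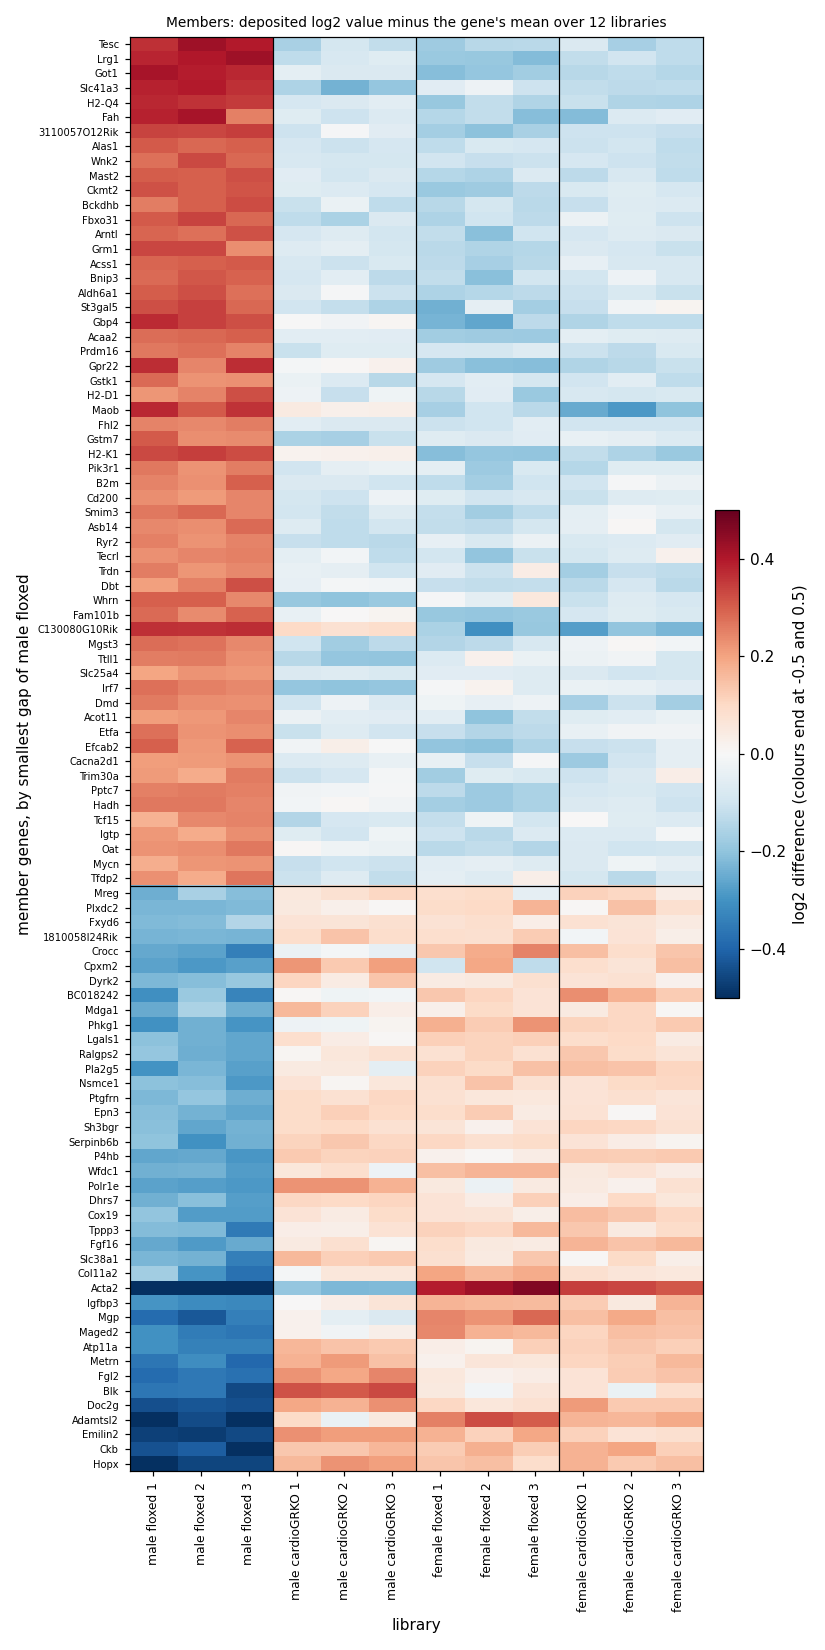
Values of 98 of the 99 members in each of the 12 libraries (columns, grouped by label), each gene centred on its mean over the libraries (colour, log2). The 58 higher and 40 lower members shown show the 3 male floxed columns on one side of the other 9, and Acta2 also differs widely among the other groups.

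Higher members included 5 genes of fatty acid and acetate use, 6 of amino acid breakdown, 2 of the 3 members that buffer or export ATP, and 4 of the 5 other mitochondrial members. Got1, the cytosolic aspartate aminotransferase of the malate-aspartate shuttle, read 14.54, 14.52 and 14.50 in male floxed, 14.07, 14.05 and 14.05 in male cardioGRKO, 13.91, 13.93 and 13.95 in libraries labelled female floxed and 13.98, 13.99 and 13.98 in those labelled female cardioGRKO. Its male cardioGRKO level was 72.7% of that in male floxed. This and other linear values come from log2 values whose exact transform is not given in the sources used here, so differences may be understated. The lowest male floxed library stood 0.425 above the highest of the others. Ckmt2, the creatine kinase of cardiac mitochondria, read 16.44, 16.42 and 16.44 in male floxed and 16.06, 16.06 and 16.04 in male cardioGRKO. It read 15.94, 15.95 and 16.00 in libraries labelled female floxed and 16.05, 16.07 and 16.04 in those labelled female cardioGRKO, so the 3 other groups overlapped or nearly touched. The cytosolic brain-type enzyme Ckb went the other way, at 10.78, 10.80 and 10.72 in male floxed and 11.34 to 11.42 in the other 9 libraries. Its 3 other group means, at 11.36, 11.36 and 11.38, were nearly level. The mitochondrial ADP/ATP carrier Slc25a4 was higher in male floxed too, at 17.45 to 17.47 in male floxed and 17.15 to 17.19 elsewhere.

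Of the fatty acid genes, Acaa2, which encodes the thiolase of the last step of beta-oxidation, read 14.88, 14.88 and 14.89 in male floxed, 14.54 in each male cardioGRKO library, 14.42, 14.42 and 14.41 in those labelled female floxed and 14.54, 14.54 and 14.53 in those labelled female cardioGRKO. The cardioGRKO groups overlapped, and the group labelled female floxed was lowest. Hadh, which catalyses the step before it, read 14.30, 14.30 and 14.28 in male floxed, 14.02 to 14.04 in male cardioGRKO and 13.86 to 13.97 in the libraries labelled female. Etfa, which passes electrons from the oxidation to the respiratory chain, had group means of 14.02 in male floxed and 13.69, 13.65 and 13.75 in male cardioGRKO, female floxed and female cardioGRKO by label. Acss1, the mitochondrial acetyl-CoA synthetase, had means of 13.23, 12.84, 12.78 and 12.86 in the same order. The 5 members of this role had smallest differences of 0.27 to 0.37. Acot11, an acyl-CoA thioesterase, stood at 9.66 to 9.70 in male floxed and 9.25 to 9.42 elsewhere.

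Breakdown of branched-chain amino acids gave 3 members. Bckdhb and Dbt encode the E1 beta and E2 subunits of the branched-chain ketoacid dehydrogenase, and Aldh6a1 the methylmalonate semialdehyde dehydrogenase of valine breakdown. Bckdhb stood at 10.89, 10.93 and 10.96 in male floxed and 10.49 to 10.60 elsewhere. Dbt stood at 10.76, 10.80 and 10.87 against 10.41 to 10.54, and Aldh6a1 at 12.62, 12.64 and 12.59 against 12.16 to 12.31. In each of the 3 genes the lowest male floxed library was above the highest of the other 9. Fah, which completes tyrosine breakdown, was less even, at 8.83, 8.86 and 8.70 in male floxed and 8.23 to 8.39 elsewhere. Oat, the ornithine aminotransferase, was the sixth, near the limit of the rule. Among other mitochondrial members, Alas1, which starts haem synthesis, read 13.04, 13.01 and 13.03 in male floxed and 12.60 to 12.65 in the other 9 libraries, whose 3 group means lay between 12.62 and 12.64. Bnip3, a receptor for mitophagy, read 11.44 to 11.46 against 10.95 to 11.13, and Cox19, an assembly factor of cytochrome oxidase, was lower in male floxed, at 9.98 to 10.07 against 10.29 to 10.42.

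The wider lists for these pathways, which hold members and other genes alike, show how few genes met the whole rule. Of 29 genes of fatty acid uptake and oxidation with a mean of at least 8, 3 were members and 26 lay above the mean of the other 3 groups in male floxed, with a median difference of 0.245. For 32 genes of the citric acid cycle and branched-chain amino acid use, 3 were members and 32 lay above, with a median of 0.223. Of 30 genes of oxidative phosphorylation none was a member, although 28 lay above, with a median of 0.12. The median over all 9636 genes was 0.0079, and the share of them that lay above was not counted. Members in a list were chosen on these same values, so such counts and medians, here and below, carry no test. The general cardiomyocyte markers were also higher in male floxed, with 13 of 15 above the mean of the other groups and a median of 0.104, and their part in these differences was not tested.

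Class I antigen presentation gave 4 higher members, H2-K1, H2-D1, H2-Q4 and B2m. H2-K1, H2-D1 and H2-Q4 encode class I heavy chains, which show peptides of the cell's own proteins to CD8 T cells, and B2m encodes their common light chain. H2-K1 read 12.78, 12.79 and 12.77 in male floxed, 12.46, 12.47 and 12.47 in male cardioGRKO, 12.24, 12.25 and 12.25 in libraries labelled female floxed and 12.32, 12.29 and 12.26 in those labelled female cardioGRKO. B2m read 13.44, 13.41 and 13.49 in male floxed, 13.11, 13.11 and 13.09 in male cardioGRKO, 13.06, 13.02 and 13.09 in libraries labelled female floxed and 13.09, 13.18 and 13.16 in those labelled female cardioGRKO. The male cardioGRKO libraries lay between male floxed and the female libraries for H2-K1 and within the range of the female libraries for B2m. H2-Q4 stood at 10.74 to 10.77 in male floxed against 10.20 to 10.34, and H2-D1 at 11.41, 11.44 and 11.52 against 11.01 to 11.17. The heavy chain genes have near-identical copies, so how reads were divided among them is uncertain, while B2m has no such family. Of 14 antigen presentation genes with a mean of at least 8, 13 lay above the mean of the other groups in male floxed, with a median difference of 0.349. The 4 members among them were chosen for being high there, so nothing is read from the size of this median.

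Another 4 higher members are induced by interferon, namely Irf7, Igtp, Gbp4 and Trim30a. Irf7, the transcription factor that amplifies type I interferon production, read 9.91, 9.89 and 9.88 in male floxed and 9.45, 9.44 and 9.45 in male cardioGRKO, the lowest group. The libraries labelled female floxed had 9.63, 9.66 and 9.58 and those labelled female cardioGRKO 9.61, 9.60 and 9.58. Gbp4, a guanylate-binding GTPase, had another order, at 10.24 to 10.29 in male floxed, 9.90 to 9.93 in male cardioGRKO and 9.66 to 9.80 in the libraries labelled female. Igtp, an immunity-related GTPase, read 9.50 to 9.54 against 9.18 to 9.30, and Trim30a had group means of 9.96 in male floxed and 9.68, 9.64 and 9.70 in male cardioGRKO, female floxed and female cardioGRKO by label. Gbp4 and Trim30a also belong to families of close copies. Of 31 interferon-stimulated genes with a mean of at least 8, 31 lay above the mean of the other groups in male floxed, with a median difference of 0.207, and 2 were members. Macrophage marker sums did not set male floxed apart, at 13.82 to 13.83 against 13.66 to 13.89, and T and NK cell marker sums were low in all groups, at 6.98 to 7.04.

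Promoter windows were read for the members from RefSeq (build GRCm38.p6), each from 250 bases before to 50 bases after the start of the gene, and 78 of the 99 members had one. Windows of 5 antigen presentation and interferon-induced members are shown, chosen because they hold matches counted below. In B2m, Igtp and Trim30a, capitals mark a match to GAAANNGAAA, the core of the interferon-stimulated response element. In H2-K1 and Irf7, capitals mark the letters TATAAA, those of a TATA box. The match lies before the annotated start in Irf7 and after it in H2-K1. Each is printed 5′ to 3′ on the strand of its gene.
B2m (chr2:122147437-122147736, plus strand): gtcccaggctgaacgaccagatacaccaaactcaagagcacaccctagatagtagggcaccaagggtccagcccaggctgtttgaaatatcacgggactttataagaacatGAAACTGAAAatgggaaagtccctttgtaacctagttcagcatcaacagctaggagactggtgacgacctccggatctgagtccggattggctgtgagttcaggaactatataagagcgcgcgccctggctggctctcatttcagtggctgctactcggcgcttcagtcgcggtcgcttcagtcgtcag
Igtp (chr11:58199306-58199605, plus strand): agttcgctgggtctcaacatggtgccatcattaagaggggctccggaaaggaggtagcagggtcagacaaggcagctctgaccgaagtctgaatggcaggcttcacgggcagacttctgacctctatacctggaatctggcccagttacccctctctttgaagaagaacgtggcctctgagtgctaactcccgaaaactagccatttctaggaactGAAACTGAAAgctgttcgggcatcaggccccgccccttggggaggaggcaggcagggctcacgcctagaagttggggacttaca
Trim30a (chr7:104465144-104465443, minus strand): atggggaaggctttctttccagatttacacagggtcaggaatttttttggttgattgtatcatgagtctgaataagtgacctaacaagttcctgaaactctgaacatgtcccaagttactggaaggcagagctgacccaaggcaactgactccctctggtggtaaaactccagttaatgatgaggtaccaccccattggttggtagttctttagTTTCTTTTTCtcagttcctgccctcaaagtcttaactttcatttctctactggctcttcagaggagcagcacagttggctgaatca
H2-K1 (chr17:34000298-34000597, minus strand): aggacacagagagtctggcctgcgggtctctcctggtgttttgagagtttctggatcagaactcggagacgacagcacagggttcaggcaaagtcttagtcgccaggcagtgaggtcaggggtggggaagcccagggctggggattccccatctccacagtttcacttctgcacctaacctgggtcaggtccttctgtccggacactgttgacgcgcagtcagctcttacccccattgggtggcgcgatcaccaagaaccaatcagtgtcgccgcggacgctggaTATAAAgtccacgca
Irf7 (chr7:141266375-141266674, minus strand): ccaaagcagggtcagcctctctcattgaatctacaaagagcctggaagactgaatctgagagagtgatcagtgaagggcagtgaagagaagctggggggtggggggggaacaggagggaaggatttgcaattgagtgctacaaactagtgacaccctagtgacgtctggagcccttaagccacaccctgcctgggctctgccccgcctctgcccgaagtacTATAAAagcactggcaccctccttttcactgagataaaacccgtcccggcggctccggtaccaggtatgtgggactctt
B2m and Igtp hold the same 10 letters, GAAACTGAAA, and Trim30a holds a match on the opposite strand.

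All motifs were searched on both strands. Counts are of genes with a match in any of their windows. GAAANNGAAA was found in 4 of 48 higher members (8.3%) and in 1 of 30 lower members (3.3%, Emilin2). It was in 3.4% of the 7744 genes with a window and a mean of at least 8. TATAAA was found in 12 of 48 higher members, 5 of 30 lower members (16.7%) and 8.6% of these 7744 genes. Counted by window instead of by gene, it was in 13.6% of all 32851 windows of the table. Its 17 members with a match included all 4 antigen presentation genes, Irf7, Lrg1, Gstm7, Fhl2 and Dmd among higher members and Ckb, Adamtsl2, Col11a2 and Maged2 among lower ones. The exact palindrome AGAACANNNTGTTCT of the glucocorticoid response element was in no member's window and in 1 of the 7744. With so few matches over all genes, nothing is read from its absence in members, and inexact forms were not searched. The shorter site AGAACA, an arm of this palindrome, was in 16.7% of higher members, 6.7% of lower members and 14.0% of the 7744 genes. The E-box CACGTG was in 6.2%, 6.7% and 12.2%, and AAGGTCA, the site of oestrogen-related receptors, in 4.2%, 0 and 3.7%. The CArG box, bound by serum response factor, was in the windows of Dmd, Fhl2 and Hopx, or 4.2% of higher members, 3.3% of lower members and 1.7% of the 7744 genes. These matches are letters in a window of 300 bases, not measured binding.

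Calcium release and excitation gave 4 higher members. Ryr2, the calcium release channel of the cardiac sarcoplasmic reticulum, read 15.20, 15.17 and 15.19 in male floxed, 14.83, 14.82 and 14.81 in male cardioGRKO, 14.90, 14.87 and 14.91 in libraries labelled female floxed and 14.87, 14.87 and 14.89 in those labelled female cardioGRKO. Male cardioGRKO was the lowest group, at 77.4% of male floxed, and the female groups overlapped. Trdn, which encodes triadin, the protein that anchors the channel at the junction, read 12.95 to 12.98 against 12.56 to 12.77. Cacna2d1, an auxiliary subunit of voltage-gated calcium channels, read 12.56 to 12.58 against 12.17 to 12.35, and Tecrl, an endoplasmic reticulum protein linked to inherited arrhythmia, 10.70 to 10.72 against 10.27 to 10.49. Dmd, which encodes dystrophin, and Fhl2, a LIM protein of the sarcomere, were further muscle members. Fhl2 stood at 16.10 to 16.12 in male floxed and 15.76 to 15.81 elsewhere, and Dmd at 11.13 to 11.16 against 10.74 to 10.88. Of 22 calcium handling genes with a mean of at least 8, 3 were members and 15 lay above the mean of the other groups, with a median of 0.122.

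**Figure D4:**
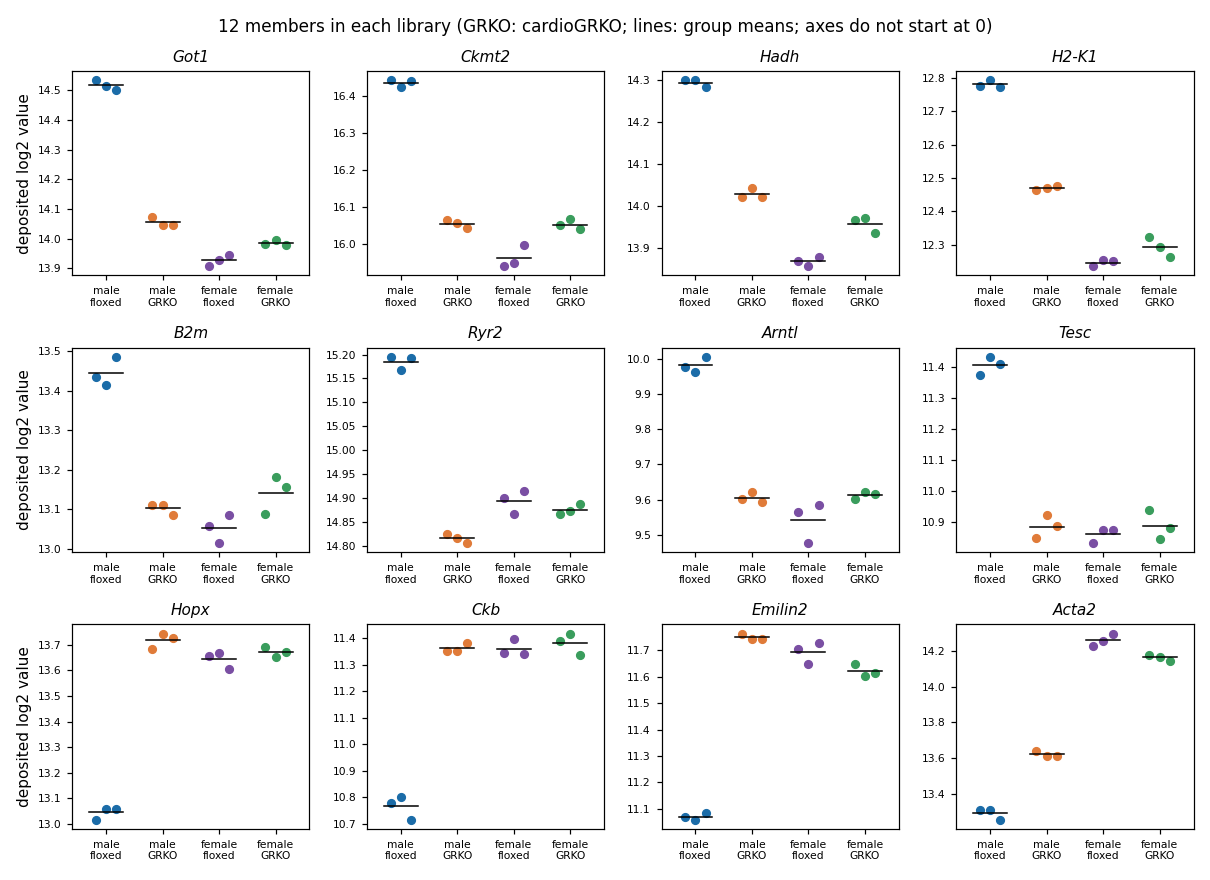
Deposited log2 values of 12 members in each library (y axes, each with its own range that does not start at 0; points: libraries; lines: group means; GRKO: cardioGRKO). The male floxed libraries stand above the other 9 for Got1, Ckmt2, Hadh, H2-K1, B2m, Ryr2, Arntl and Tesc and below them for Hopx, Ckb, Emilin2 and Acta2.

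Glutathione transferases gave 3 higher members, Gstk1, Gstm7 and Mgst3, which conjugate glutathione to reactive compounds. Mgst3 read 12.62 to 12.66 in male floxed, 12.20 to 12.28 in male cardioGRKO, 12.23 to 12.30 in libraries labelled female floxed and 12.35 to 12.39 in those labelled female cardioGRKO. Gstk1 stood at 11.16 to 11.22 against 10.80 to 10.90, and Gstm7, whose family has close copies, at 10.11 to 10.18 against 9.71 to 9.84. The list of antioxidant enzymes and metallothioneins as a whole had 14 of 26 genes above the mean of the other groups in male floxed, with a median of 0.013.

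Among 6 transcription factors, Hopx had the largest smallest difference of all members. This homeodomain-only protein restrains serum response factor in the heart. It read 13.02, 13.06 and 13.06 in male floxed, 13.68, 13.74 and 13.72 in male cardioGRKO, 13.66, 13.67 and 13.61 in libraries labelled female floxed and 13.69, 13.65 and 13.67 in those labelled female cardioGRKO. The other 9 libraries overlapped between groups, and every other group mean was at least 1.51 times that of male floxed on a linear scale. Arntl, the clock activator BMAL1, was higher in male floxed, at 9.98, 9.96 and 10.01 against 9.48 to 9.62. In the list of clock and output genes, which were not separated, 13 of 19 lay below the mean of the other groups in male floxed, with a median of -0.115. The labels used here give no hour of tissue collection. Prdm16, a cofactor known from brown fat and heart development, stood at 9.88 to 9.91 against 9.51 to 9.57. Tcf15, Mycn and Tfdp2 were the remaining higher members of this role, and none of the 6 passed the test between the cardioGRKO groups.

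Matrix and secreted proteins held 12 of the 41 lower members and 1 higher one. Emilin2, a glycoprotein of elastic fibres, read 11.07, 11.06 and 11.08 in male floxed, 11.76, 11.74 and 11.74 in male cardioGRKO, 11.71, 11.65 and 11.73 in libraries labelled female floxed and 11.65, 11.60 and 11.61 in those labelled female cardioGRKO. Adamtsl2, which binds fibrillin and latent TGF-beta complexes, read 9.90, 9.99 and 9.91 in male floxed, 10.41 to 10.53 in male cardioGRKO and 10.61 to 10.76 in the libraries labelled female. Fgl2, which occurs as a membrane prothrombinase and a secreted protein, read 11.23, 11.26 and 11.24 in male floxed, 11.81 to 11.86 in male cardioGRKO and 11.64 to 11.76 in the libraries labelled female. Male cardioGRKO was thus the farthest group for Emilin2 and Fgl2 and the nearest for Adamtsl2. Mgp, the matrix Gla protein that inhibits calcification, read 12.43, 12.39 and 12.47 in male floxed, 12.74 to 12.84 in male cardioGRKO and 12.97 to 13.10 in the libraries labelled female. Igfbp3, which binds insulin-like growth factors, stood at 10.65 to 10.67 against 10.97 to 11.14, and Metrn, a secreted neurotrophic factor, at 9.72 to 9.80 against 10.14 to 10.33. Lgals1, galectin-1, Fgf16, a growth factor of the heart, and Pla2g5, a secreted phospholipase, were further lower members. The higher member was Lrg1, a secreted leucine-rich glycoprotein, at 9.73, 9.75 and 9.77 in male floxed and 9.13 to 9.29 elsewhere.

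None of these 13 genes is in the extracellular matrix list, whose 41 genes with a mean of at least 8 included no member. Of these 41 genes, 34 lay below the mean of the other groups in male floxed, with a median of -0.103. Among the fibroblast markers 11 of 12 lay below, with a median of -0.191. The part of the fibroblast marker difference in the values of the matrix members was not tested.

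Acta2, the smooth muscle actin that marks smooth muscle and activated fibroblasts, was the member whose other groups differed most. It read 13.31, 13.31 and 13.25 in male floxed, 13.64, 13.61 and 13.61 in male cardioGRKO, 14.23, 14.26 and 14.30 in libraries labelled female floxed and 14.18, 14.17 and 14.14 in those labelled female cardioGRKO. No 2 groups overlapped, and both male groups lay below both groups labelled female. The other smooth muscle and pericyte markers did not follow Acta2 in male floxed, where 8 of the 9 list genes with a mean of at least 8 lay above the mean of the other groups. Other cytoskeletal members included Tppp3 and Crocc, lower in male floxed, and Whrn and Ttll1, higher.

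Kinases were divided, with Wnk2, Mast2 and Pik3r1 higher and Blk, Dyrk2 and Phkg1 lower. Wnk2 read 11.20, 11.25 and 11.21 in male floxed and 10.79 to 10.84 elsewhere, and Mast2 12.74 to 12.76 against 12.28 to 12.38. Blk, a Src family kinase known from B cells, read 7.95, 7.95 and 7.86 in male floxed, 8.63, 8.62 and 8.64 in male cardioGRKO, 8.36, 8.30 and 8.37 in libraries labelled female floxed and 8.38, 8.28 and 8.39 in those labelled female cardioGRKO. Male cardioGRKO was the highest group, and the groups labelled female overlapped. The summed level of 7 B cell markers, Blk included, ran in the same order, at 9.05 to 9.11, 9.49 to 9.50, 9.23 to 9.26 and 9.27 to 9.33, and Blk was the only one with a mean of at least 8. Its part in the sum was not separated.

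Of 10 receptors, transporters and surface proteins, Slc41a3, a magnesium transporter, had the largest smallest difference, at 11.79, 11.80 and 11.77 in male floxed and 11.17 to 11.38 elsewhere. Atp11a, a phospholipid flippase, was lower in male floxed, at 11.77 to 11.81 against 12.12 to 12.27. Gpr22, an orphan receptor found in heart, stood at 10.06 to 10.19 against 9.61 to 9.84. The remaining 22 members had no role group. Tesc, a calcium-binding EF-hand protein, had the largest smallest difference among higher members, and read 11.38, 11.43 and 11.41 in male floxed and 10.83 to 10.94 elsewhere. Doc2g, a C2-domain protein, read 12.38, 12.40 and 12.39 in male floxed and 12.88 to 13.05 elsewhere. Maged2, an X-linked member of the MAGE family, had a mean of 10.43 in male floxed and of 10.78 to 10.96 in the other groups, and P4hb, protein disulfide isomerase, 12.89 to 12.92 against 13.19 to 13.31. Fbxo31, an F-box protein of ubiquitin ligases, stood at 11.43 to 11.48 against 10.98 to 11.11. As in all 99 members, the male floxed libraries of Tesc, Doc2g, Maged2, P4hb and Fbxo31 did not overlap the other 9.

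The rule set no direct limit on the difference between the cardioGRKO groups, and this contrast was tested. It did use both of these group means, so the members' share and sizes in this contrast are not independent of the choice. Across 14721 genes, 24.2% differed between male cardioGRKO and the libraries labelled female cardioGRKO (limma, adjusted p under 0.05), 12.4% higher and 11.9% lower in males. Among the 9636 genes with a mean of at least 8, from which the members come, 29.6% differed. Of the 99 members, 37 differed (37.4%), with 20 higher and 17 lower in male cardioGRKO, and 62 did not pass the test. The median size of the difference was 0.052 among members and 0.0497 among the 9636 genes, so the members were close to the background in size. Whether the members' share differs from the background was not tested. Higher members had 14 genes higher and 7 lower in male cardioGRKO, and lower members 6 higher and 10 lower. Nothing is read from this split, because the rule used both group means.

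Acta2 had the largest of these differences, at -0.54 (SE 0.020, limma adjusted p = 5.57e-12), with all 3 male cardioGRKO libraries below all 3 labelled female cardioGRKO. The smooth muscle and pericyte sum lay at 15.23 to 15.25 in male cardioGRKO and 15.50 to 15.51 in those labelled female cardioGRKO. Of its 9 list genes with a mean of at least 8, 6 were lower and 1 higher by the same test, and the part of this difference in Acta2 was not tested. Mgp differed by -0.20 (SE 0.026, adjusted p = 3.43e-05) and Irf7 by -0.15 (SE 0.025, adjusted p = 0.000249). On the other side Blk was higher by 0.28 (SE 0.035, adjusted p = 1.92e-05). Maob, the X-linked monoamine oxidase B of the outer mitochondrial membrane, was higher by 0.28 (SE 0.027, adjusted p = 1.28e-06). H2-K1 was higher by 0.18 (SE 0.018, adjusted p = 2.13e-06). Of these 6 genes Acta2, Mgp, Maob and H2-K1 had male cardioGRKO as the group nearest to male floxed, and Irf7 and Blk as the farthest. A gene model without a proper symbol reached 0.32, and another -0.19.

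**Figure D5:**
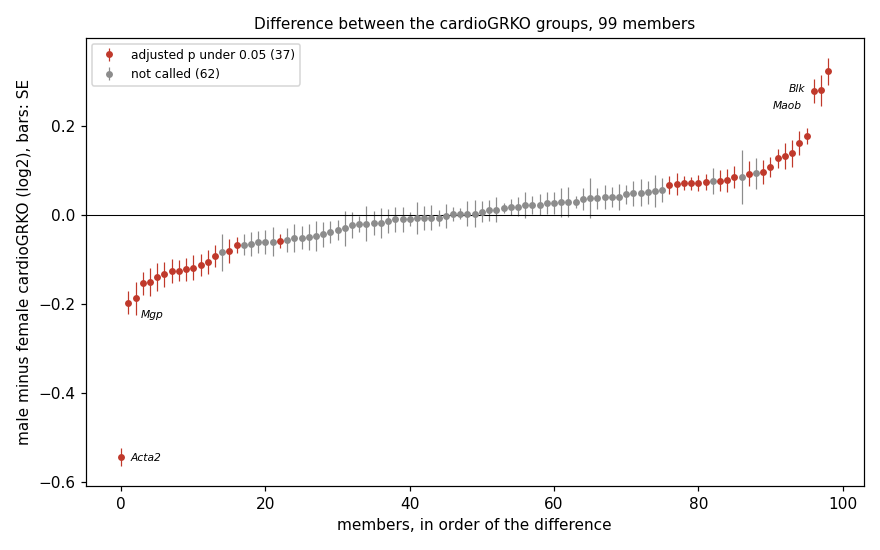
Difference of male cardioGRKO from the libraries labelled female cardioGRKO for each of the 99 members in order of size (y axis: log2 difference; points: estimates; bars: SE; red: limma adjusted p under 0.05). Acta2, at -0.54, lies far below the other members, and Blk and Maob lie at 0.28.

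By role, the counts are set beside the 29.6% of the 9636 genes that differed in either direction. By direction, 12.4% of the 14721 genes tested were higher and 11.9% lower in males. The roles were formed after the members were seen, and nothing is read from their small counts. Cytoskeleton and cilia had 4 of 6 lower and none higher, Acta2 included, and glutathione transferases had 2 of 3 lower, Mgst3 at -0.12 (adjusted p = 0.000715) and Gstm7 at -0.09 (adjusted p = 0.0129). Class I antigen presentation had 2 of 4 higher and none lower, with H2-Q4 at 0.07 (adjusted p = 0.0421) beside H2-K1, and amino acid breakdown had 3 of 6 higher. Got1 was one of these, at 0.07 (SE 0.016, adjusted p = 0.00316). Matrix and secreted proteins had 5 of 13 lower and 2 higher, the 2 being Emilin2 at 0.13 (adjusted p = 0.000551) and Fgl2 at 0.11 (adjusted p = 0.00226). None of the 3 creatine kinase and ATP export genes passed, with Ckmt2 at 0.00 (SE 0.015, adjusted p = 0.942) and Ckb at -0.02 (SE 0.027, adjusted p = 0.659). Among calcium release genes Ryr2 differed by -0.06 (SE 0.015, adjusted p = 0.00788). A p that misses the threshold does not show that the groups were equal.

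Over all members, male cardioGRKO was the group nearest to male floxed in 47, the farthest in 27 and between both groups labelled female in 25. For higher members these counts were 29, 9 and 20, and for lower members 18, 18 and 5. The median difference of male floxed from male cardioGRKO was 0.342 for higher members, from the group labelled female floxed 0.398 and from that labelled female cardioGRKO 0.359. For lower members the medians were -0.332, -0.356 and -0.375 in the same order. These 3 differences share the male floxed libraries, and the rule selected on each of them. It also kept the groups labelled female within 0.12 of each other, which leaves little room between them. The same counts over all genes with a mean of at least 8 are not given, so nothing is read from the order of the groups.

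Members had a shorter median transcript and less exon overlap than genes with a mean of at least 8, and neither difference was tested. The median transcript length was 2674 bases for higher and 2572 for lower members, against 3558 for genes with a mean of at least 8. The median GC content was 50.4% for higher and 52.0% for lower members, and the interquartile range of genes with a mean of at least 8 was 45.1% to 54.7%. Exons overlapped a gene on the opposite strand in 10 of 57 higher members with an annotation and 6 of 41 lower ones, against 2663 of 9494 genes with a mean of at least 8. These 16 included Ckmt2, Alas1, Arntl, Aldh6a1, H2-Q4, Hopx, Metrn and Atp11a, and whether counting used strand is not given in the sources used here, so reads of overlapping partners cannot be told apart. Members lay on all autosomes and the X chromosome. Chromosome 17 had 8 members, 1.68% of its genes with a mean of at least 8, against 1.03% on all chromosomes. When only genes with a mean of at least 8 were placed in order, H2-D1 and H2-Q4 there were the only adjacent members. Genes below that mean may lie between them.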

How the data were processed

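Per the labels' protocols, 12 libraries of mouse heart RNA were made with an Illumina TruSeq kit (version 2) and sequenced on a NextSeq500. The authors deposited 1 table of log2 values with 24918 rows, from -2.20 to 19.51. The submitters' processing notes name Trim Galore, TopHat2, HTSeq, DESeq2 and the build mm9. No versions are given. Only normalized values are at hand, so sequencing depth is unknown and the spread between libraries is the only measure of precision. Groups come from the titles.

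The 99 members and all gene lists were chosen with earlier results of these data known. Role groups, promoter motifs and the promoters shown were chosen after the members' values were seen. The named genes are Nr3c1, the 12 members with the largest smallest difference in each direction, those nearest the limit, up to 4 members of each list, and the 4 largest called differences between the cardioGRKO groups in each direction. Gene models that lack a proper symbol are given without a name, and other members were named for their known role after their values were seen. The values of 1 member are not reported here.

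Rows reaching log2 of 10 in 3 or more libraries were tested (14721, among them 8 repeated symbols), with 1 mean per group over 12 libraries, by limma 3.58.1 in R 4.3.3 with an intensity trend and 8 residual degrees of freedom. Adjusted p-values are two-sided, by Benjamini-Hochberg over all genes tested, called under 0.05. Of the symbols, 27 had turned into dates and were restored through Entrez identifiers. Summed marker levels add linear values before taking log2. Promoters come from RefSeq (GRCm38.p6), and transcript lengths, GC content and exon overlaps from the mouse reference annotation, matched by symbol or identifier. The scripts were tested on simulated data. Alternatives changed 1 choice at a time.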

Additional observations from a re-analysis of the deposited data

Results flagged for a closer look

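The change of Nr3c1 under the cardioGRKO label differed between the sexes. It was -0.56 (SE 0.024) in males and 0.14 (SE 0.024) in the libraries labelled female, a difference of -0.698 (SE 0.034, limma interaction term, adjusted p = 1.11e-10). All 3 male cardioGRKO libraries were below all 3 male floxed libraries, and all 3 libraries labelled female cardioGRKO were above all 3 labelled female floxed. Without female floxed 1 and 2, the libraries rich in Krt12, the change in the libraries labelled female was 0.10, with female floxed 3 alone in its group.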

How the results depend on the processing

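The number of members depends on the minimum difference. A limit of 0.20 gave 196 genes and one of 0.30 gave 51, and genes in at least 1 list numbered 40 and 13, against 22. The other alternatives gave 73 to 120 members, with the lowest and highest under a limit of 0.08 and 0.16 on the difference between the groups labelled female. Quantile normalization gave 88, of which 78 were among the 99. Leaving out each library in turn gave 94 to 103 members, 20 to 23 of them in lists. The male floxed libraries stayed on one side in all 99 members, which leaving out a library cannot change. These reruns moved the genes called between the cardioGRKO groups from 3568 to between 2735 and 3863, and members called from 37 to between 28 and 40. Over all alternatives members called ranged from 28 to 42. The largest called differences in each direction belonged to 8 members, which kept direction and call in 176 of 176 values. These genes were chosen for the size of this difference. Several alternatives, such as leaving out a floxed library or the filter, cannot change that size. The count therefore says little about how stable the other members are. The median of male floxed minus the mean of the other groups over all genes tested was -0.0016 as deposited, 0.0027 after quantile normalization and 0.0103 after median centring, and all 99 members kept their sign.

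Deviations of same-numbered libraries of different groups correlated weakly, at -0.11 to 0.148, and 4 of 12 libraries correlated best with their own number. Unrelated numbers would give about as many, so no pairing by number was seen, though a weak one could be missed. With the replicate block 3417 genes and 36 members were called, and Nr3c1 changed by -0.56 in males and 0.14 in the libraries labelled female, a difference of -0.70. The precision rests on 3 libraries per group.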

Other observations

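Lists without a member also differed in how many of their genes lay on one side in male floxed. All 15 atrial muscle genes with a mean of at least 8 lay below the mean of the other groups, with a median difference of -0.561, and 14 of them were higher in male cardioGRKO than in the libraries labelled female cardioGRKO (limma, adjusted p under 0.05), against 12.4% of all 14721 genes tested. Myl7, the atrial myosin light chain, read 12.75, 12.83 and 12.78 in male floxed, 14.28 to 14.32 in male cardioGRKO, 13.64 to 13.70 in the libraries labelled female floxed and 12.38 to 12.43 in those labelled female cardioGRKO. Male floxed was thus not at the end of the order for this gene. Of 17 endoplasmic reticulum stress genes 15 lay below the mean of the other groups, with a median of -0.08. Of 19 genes of mitochondrial dynamics and ribosomes 18 lay above, with a median of 0.099. Of 30 genes known to be induced by glucocorticoids 19 lay below and 11 above, with a median of -0.112, and none was a member.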
